A study of Mus musculus with 8 samples.

Results

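The 10 genes described here encode transcription factors of the oligodendrocyte lineage, the cells that make myelin in the central nervous system. They are Olig1, Olig2, Sox10, Sox8, Sox6, Myrf, Nkx2-2, Nkx6-2, Tcf7l2 and Zfp488. The genes were chosen by name, with earlier results of these data known. All 10 were found among the 54532 genes of the deposited count table. The libraries came from brain tissue of male mice aged 3 months, either wild type (WT) or Nsun5-KO (KO) by their labels and from the same litter according to the protocol, which names 5 mice per genotype. Mice of both genotypes were given pentobarbital sodium (2%, 50 mg/kg, into the peritoneum) as the anaesthetic before the brain was taken. Nsun5 methylates ribosomal RNA at a cytosine, and the study set the genotypes against each other with myelination and sleep as its named traits. Ribosome footprints, the RNA fragments shielded by ribosomes, were counted in 4 WT and 4 KO libraries, and mRNA in another 4 and 4 libraries with the same names. No label links a library to an animal, so each p-value measures the spread between libraries, which may be technical.

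Oligodendrocyte identity is set by Olig2, a basic helix-loop-helix factor, and its neighbour Olig1, and precursors are held in their immature state in part by Sox6. Sox10, with its relative Sox8, switches on Myrf when a precursor leaves the cell cycle, and Sox10 and Myrf together turn on the genes of myelin. Nkx2-2 and Nkx6-2 are homeodomain factors, the first active around the start of differentiation and the second in mature cells, while Tcf7l2 is a Wnt pathway effector of newly formed cells and Zfp488 a zinc finger partner of Olig2.

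Sox10, Myrf, Nkx2-2 and Nkx6-2 had lower mRNA in every KO library than in any WT library. In the fit they were at 0.616 to 0.734 of the WT level. Of all genes tested, 2.74% had every KO library lower and 2.85% every KO library higher. Nkx2-2 met the level needed for testing only through its WT level. Of the 9 members tested in mRNA, 0 passed edgeR at an adjusted p under 0.05 (0% of all genes did), and DESeq2 passed 2, Sox10 and Myrf (0.666% of all genes). Olig1 and Olig2 were at 0.865 and 0.864, and Sox8, Sox6 and Tcf7l2 at 0.940 to 0.971. The intervals of Olig1, Sox8, Sox6 and Tcf7l2 include no difference, and that of Tcf7l2 is wide (−1.19 to 1.08 on the log2 scale). Ribosome footprints on the members were few, and none of the 6 members deep enough to be tested separated the groups.

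The libraries differed in depth and in some brain region markers. Counts assigned to genes came to 0.586 to 3.49 M (M, mega) per footprint library, with 0.233 to 1.47 M on protein-coding genes and the 3 shallowest on that count all KO, and to 15.6 to 17.8 M per mRNA library. Nsun5 mRNA itself had 91, 82, 103 and 109 counts in WT libraries 1 to 4, against 102, 124, 83 and 110 in KO libraries 1 to 4, so it does not check the labels, and directions are between libraries as labelled. The summed mRNA of 6 general neuron genes was higher in all KO libraries (6312 to 6840 counts per 1000000 of library size, CPM, against 5384 to 5842 in WT), and that of 10 astrocyte genes overlapped (4422 to 4954 against 4155 to 4823). Summed mRNA of the microglia list was 361 to 393 CPM in WT libraries and 349 to 370 in KO libraries, of the endothelium and pericyte list 344 to 358 and 317 to 382, and of the choroid plexus and ependyma list 322 to 1151 and 56.0 to 1175. The hypothalamic list was at 8.46 to 144 CPM in WT libraries and 5.58 to 14.1 in KO libraries, and the part of such markers in the members' values was not tested. The summed mRNA of 4 genes of Schwann cells, the myelin-forming cells of peripheral nerve that also use Sox10, was 10.6 to 27.0 CPM in WT libraries and 16.7 to 27.1 in KO libraries. In bulk tissue, fewer cells of a type and less RNA per cell cannot be told apart.

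On mm10, the build of the deposited coordinates, Olig2 lies at chr16:91225457-91228677 and Olig1 at chr16:91269772-91271933, both on the plus strand with 41095 bases between them. The other members lie apart, Sox10 at chr15:79154908-79165240, Sox8 at chr17:25565892-25570686, Myrf at chr19:10208272-10240748 and Tcf7l2 at chr19:55741810-55933654. Sox6 at chr7:115470872-116038796 and Nkx6-2 at chr7:139579376-139582797 share a chromosome, Nkx2-2 lies at chr2:147177546-147194243 and Zfp488 at chr14:33967070-33978764. Nkx6-2 overlaps the protein-coding gene Inpp5a on the opposite strand, which held 7810 mRNA counts over all libraries, and Nkx2-2 overlaps its antisense gene Nkx2-2os (64 mRNA counts). Whether counting used strand is not given in the sources used here, so reads of such pairs may not be told apart.

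The promoters below show the 250 bases before the RefSeq start (GRCm38.p6) of Nkx6-2 and Nkx2-2, the members with the lowest KO to WT ratio of mRNA, and of Sox8, a member that stayed within the WT range in every KO library. RefSeq windows matched 7 of the 10 members. Capitals mark matches on either strand to CANNTG, the E-box that basic helix-loop-helix factors such as Olig2 bind, to ACAAAG, a core bound by Sox factors, or to CTGGNAC, a form of the Myrf motif. All sequences read 5′ to 3′ on the gene's strand, which is the minus strand for these genes, at chr7:139582798-139583047 (Nkx6-2), chr2:147186403-147186652 (Nkx2-2, inside the longer gene span of the count table) and chr17:25570687-25570936 (Sox8).
Nkx6-2: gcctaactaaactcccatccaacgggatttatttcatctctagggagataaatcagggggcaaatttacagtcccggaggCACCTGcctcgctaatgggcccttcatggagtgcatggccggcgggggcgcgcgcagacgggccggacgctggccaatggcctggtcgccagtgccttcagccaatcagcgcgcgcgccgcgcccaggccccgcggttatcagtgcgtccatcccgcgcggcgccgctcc
Nkx2-2: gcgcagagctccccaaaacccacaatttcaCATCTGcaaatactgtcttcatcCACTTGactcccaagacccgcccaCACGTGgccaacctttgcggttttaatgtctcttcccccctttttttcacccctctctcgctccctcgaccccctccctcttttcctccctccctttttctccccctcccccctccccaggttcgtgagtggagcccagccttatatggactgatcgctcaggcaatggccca
Sox8: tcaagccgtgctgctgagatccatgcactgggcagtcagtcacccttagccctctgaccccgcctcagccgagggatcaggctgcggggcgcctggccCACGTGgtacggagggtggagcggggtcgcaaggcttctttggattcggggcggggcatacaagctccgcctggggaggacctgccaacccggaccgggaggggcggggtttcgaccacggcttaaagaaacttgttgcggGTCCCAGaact

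Nkx2-2 held 3 E-boxes, which began 220, 197 and 173 bases before the start, and Nkx6-2 held 1, at 170 bases. Sox8 held 1 E-box at 152 bases, CACGTG, and 1 Myrf match at 11 bases. An E-box was present in 66.2% of all 32851 promoter windows of this length, ACAAAG in 16.5% and CTGGNAC in 16.1%. The windows of Olig2 and Zfp488 held 0 matches, which says only that these letters are not in those windows. G and C made up 65.2% of the Nkx6-2 window, 56.4% of the Nkx2-2 window and 65.6% of the Sox8 window, where the median of all windows was 52.4%.

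Sox10, the SoxE factor that Myrf and myelin genes depend on, had mRNA levels of 54.4, 49.7, 48.4 and 58.6 CPM in WT libraries 1 to 4, against 36.6, 45.9, 29.5 and 38.1 in KO libraries 1 to 4. Every KO library lay below the lowest WT library, with KO library 3 lowest and KO library 2 nearest to WT. The log2 fold change was −0.49 ± 0.12 (SE, n = 4 each, 95% interval −0.76 to −0.22), with an edgeR adjusted p of 0.337 and a DESeq2 adjusted p of 0.0374; log2 fold changes are given ± SE throughout. Myrf, a membrane-tethered factor whose released part activates myelin genes, had 49.3, 49.2, 56.8 and 59.9 CPM in WT against 35.8, 42.0, 33.3 and 46.9 in KO. Its groups did not overlap either, and KO library 4 came nearest to WT. The log2 fold change of Myrf was −0.45 ± 0.12 (95% interval −0.70 to −0.19, edgeR adjusted p = 0.337, DESeq2 adjusted p = 0.0493).

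Nkx6-2, a homeodomain factor of mature oligodendrocytes, had 16.7, 16.8, 16.1 and 20.9 mRNA CPM in WT libraries 1 to 4, against 9.27, 15.5, 6.79 and 13.2 in KO libraries 1 to 4. KO libraries 1 and 3 were far below the WT range and KO library 2 just below it. The log2 fold change was −0.65 ± 0.22 (95% interval −1.14 to −0.17, edgeR adjusted p = 0.402, DESeq2 adjusted p = 0.138). Its opposite-strand neighbour Inpp5a had 54.8 to 63.2 CPM in WT against 47.5 to 71.1 in KO, so the 2 genes did not share this pattern. Nkx2-2, which acts as a repressor in differentiating precursors, was sparse, with 69 to 77 mRNA counts per WT library and 32, 63, 32 and 57 in KO libraries 1 to 4. These were 4.07, 4.99, 4.48 and 4.40 CPM in WT against 2.02, 3.74, 1.99 and 3.24 in KO, again with KO libraries 1 and 3 lowest and no overlap. The log2 fold change of Nkx2-2 was −0.70 ± 0.23 (95% interval −1.20 to −0.20, edgeR adjusted p = 0.372), and DESeq2 gave it no adjusted p under its filter on low counts.

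Olig2, which specifies the lineage and stays on throughout it, had 26.7, 25.4, 29.2 and 26.8 mRNA CPM in WT against 22.3, 23.5, 21.6 and 26.1 in KO. KO library 4 lay inside the WT range and the other 3 below it. The log2 fold change was −0.21 ± 0.086 (95% interval −0.40 to −0.02, edgeR adjusted p = 0.444). Olig1, a close relative of Olig2 that promotes differentiation, had 104, 147, 111 and 111 CPM in WT against 96.9, 99.1, 91.8 and 122 in KO. WT library 2 stood above the others, and 3 of the 4 KO libraries lay below the WT range. Its log2 fold change was −0.21 ± 0.12 (95% interval −0.48 to 0.06, edgeR adjusted p = 0.568), and −0.09 without WT library 2.

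Sox8, a SoxE relative of Sox10 that can partly stand in for it, had 44.5, 59.0, 52.5 and 62.7 mRNA CPM in WT against 50.9, 51.3, 53.8 and 56.3 in KO, all inside the WT range. Its log2 fold change of −0.04 ± 0.10 (edgeR adjusted p = 0.914) had a 95% interval from −0.27 to 0.18, and the difference between Sox8 and Sox10 was not tested. Sox6, a SoxD factor of precursors that some interneurons also express, had 24.5, 28.0, 25.6 and 25.9 CPM in WT against 23.5, 26.6, 25.1 and 22.4 in KO. The groups overlapped, and the log2 fold change was −0.09 ± 0.083 (95% interval −0.27 to 0.09, edgeR adjusted p = 0.744). Zfp488, a differentiation-promoting zinc finger protein, did not reach the mean of 1 RPKM (reads per kilobase of gene length and 1000000 of library size) used for testing mRNA. It had 5.01, 4.99, 3.92 and 4.40 CPM in WT against 3.53, 4.51, 3.99 and 3.24 in KO, with 2 KO libraries below the WT range (exact two-sided permutation p = 0.143, 0.357 after adjustment over 5 such comparisons, n = 4 each, smallest possible p 0.0286).

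Tcf7l2, an HMG-box partner of beta-catenin, varied widely among KO libraries (SD 15.3 CPM around a mean of 17.8). It had 16.3, 15.1, 19.1 and 23.4 mRNA CPM in WT against 4.67, 37.5, 6.91 and 22.0 in KO libraries 1 to 4. KO libraries 1 and 3 lay far below the WT range and KO library 2 far above it. The fit gave −0.05 ± 0.51 (95% interval −1.19 to 1.08, edgeR adjusted p = 0.980), and −0.72 without KO library 2. Tcf7l2 is also expressed by thalamic neurons, as is Slc17a6, a vesicular glutamate transporter of the thalamus and other subcortical regions. Slc17a6 mRNA was 108, 90.5, 72.0 and 87.6 CPM in WT against 36.0, 150, 39.4 and 119 in KO, with the same KO libraries high and low. The summed level of the 14 thalamic genes was 557 to 722 CPM in WT against 479, 801, 533 and 616 in KO libraries 1 to 4, and none of the 14 was at 0 throughout. Single genes of the 14 did not all share the Slc17a6 pattern. KO libraries 1 and 3 were the lowest KO libraries in Slc17a6, Zfhx3, Prkcd, Tnnt1, Calb2, Lef1, Synpo2 and Adarb1. They were not in Plekhg1, Rgs16, Ntng1, Gbx2, Ramp3 and Rora. KO library 2 was the highest KO library in all of the 14 except Ntng1. In KO libraries 1 to 4, Zfhx3 had 3.91, 8.42, 3.43 and 7.62 CPM, which followed the Slc17a6 pattern. Ntng1 had 27.2, 37.3, 39.9 and 30.8 CPM and Rora 92.7, 123, 96.1 and 89.8, which did not. The summed level of 10 cortical projection neuron genes was highest in KO libraries 1 and 3, at 2331 and 2226 CPM, with 1320 to 1861 in WT. The part of regional make-up in the Tcf7l2 values, or in those of the other members low in KO libraries 1 and 3, was not tested.

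**Figure D1:**
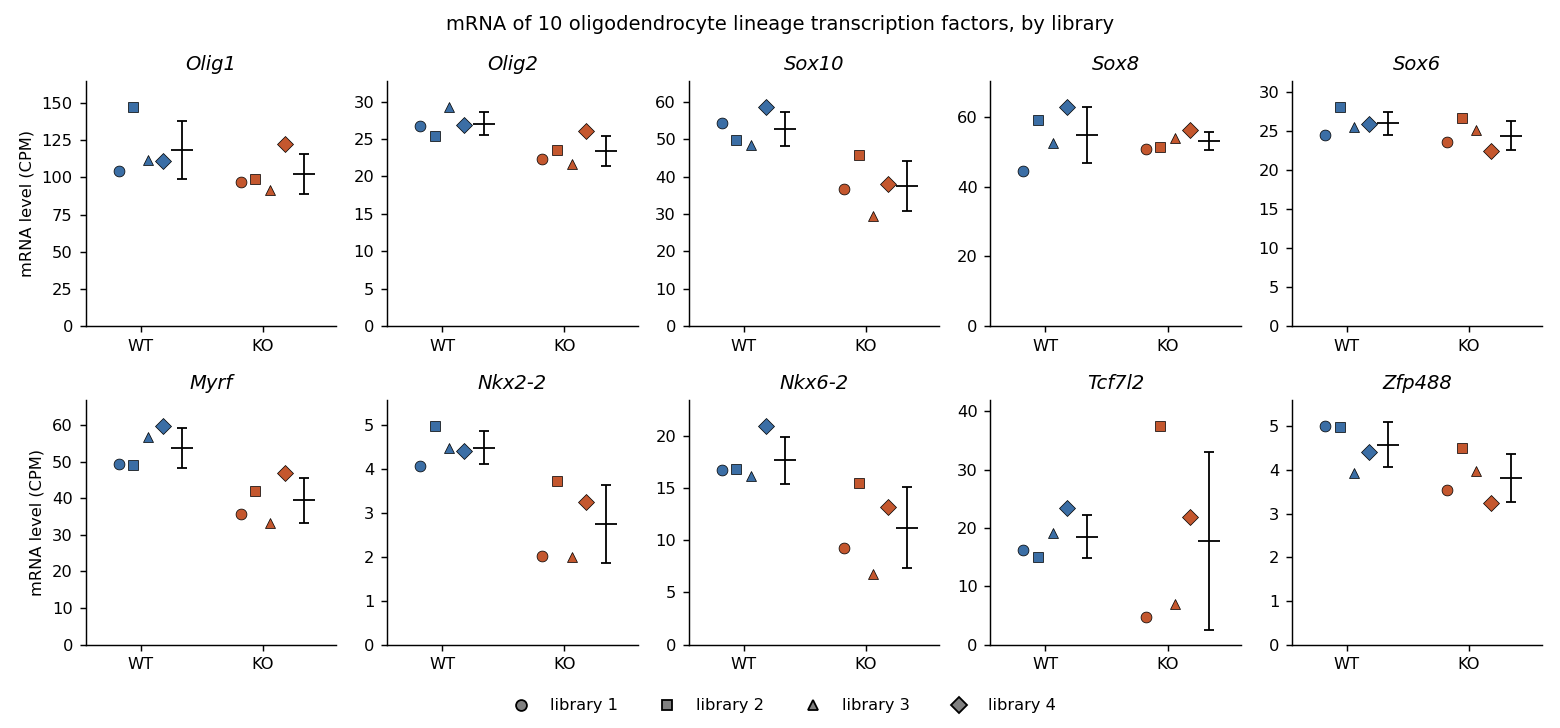
mRNA level of each member in counts per 1000000 of library size (CPM, linear axis from 0) in 4 WT (blue) and 4 KO (red) libraries, with marker shape for the library number and mean ± SD beside the points. KO points of Sox10, Myrf, Nkx2-2 and Nkx6-2 all lie below the WT points, and those of Tcf7l2 spread from 4.67 to 37.5 CPM.

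Across the members, 0 of the 9 tested in mRNA passed edgeR at an adjusted p under 0.05, where 0% of 13058 genes did. At an unadjusted edgeR p under 0.05, 5 of 9 were lower in KO (Sox10, Myrf, Olig2, Nkx2-2 and Nkx6-2) and 0 higher, beside 5.22% of all genes lower and 5.32% higher. DESeq2 called 2 of 9, Sox10 and Myrf, both lower, beside 0.666% of all genes called and 0.283% called lower. The groups did not overlap, with KO lower, in 4 of 9 members and in 2.74% of all genes, and with KO higher in 0 members and in 2.85% of all genes. All 9 log2 fold changes were below 0, as were 51.4% of all genes, with a median of −0.21 for the members and −0.01 for all genes. Without KO library 2 the members' median was −0.48. Nkx2-2 met the mean of 1 RPKM for mRNA only through its WT level (1.53 RPKM, with 0.947 in KO). Zfp488, at 1.04 RPKM in WT and 0.879 in KO, did not meet it. The filter thus favoured a lower KO value for Nkx2-2, and its place in the counts above adds no support to them. All members were chosen with earlier results of these data known. The counts set beside the shares of all genes are therefore a description and not a test.

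KO libraries 1 and 3 were the lowest pair of all 8 mRNA libraries for 7 of the 9 tested members (Olig1, Olig2, Sox10, Myrf, Nkx2-2, Nkx6-2 and Tcf7l2), and for 6.47% of all genes. The remaining members were Sox8, lowest in WT library 1 and KO library 1, and Sox6, lowest in KO libraries 1 and 4. Within groups, after removal of each group's mean, Sox10 and Nkx6-2 followed each other most closely (Pearson r = 0.93 over 8 libraries), then Nkx2-2 and Tcf7l2 (0.92) and Nkx2-2 and Nkx6-2 (0.86). Olig2 and Myrf reached 0.85, while Sox8 stayed at or below 0.52 with every other member and Olig2 and Sox6 were at −0.50. These are descriptions over shared libraries, in which KO libraries 1 and 3 carry much of the spread.

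The 5 genes outside the list whose mRNA pattern over the 8 libraries was most like the members' mean were Rnf113a2 (Pearson r = 0.974), Dbndd2 (0.968), Araf (0.960), Tm4sf1 (0.959) and Syt9 (0.953), out of 13058. Syt9, a synaptotagmin, had 19.2, 24.6, 21.9 and 27.6 CPM in WT against 11.2, 17.1, 13.8 and 16.6 in KO, and its log2 fold change was −0.67 ± 0.15 (adjusted p = 0.337 by edgeR). Dbndd2 had 69.3 to 80.2 CPM in WT against 57.8 to 73.0 in KO, with KO libraries 1 and 3 lowest.

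Genes of mature oligodendrocytes, many of them targets of Sox10 and Myrf, had lower mRNA as well. Of 22 mature oligodendrocyte genes, 22 had a log2 fold change below 0 (median −0.42), beside 51.4% of all genes, and 0 passed edgeR. At an unadjusted edgeR p under 0.05, 16 were lower, beside 5.22% of all genes. DESeq2 called 8 lower, among them Mal, Mobp, Ugt8a and Gjc3, beside 0.283% of all genes. Summed mRNA of the 22 genes was 8426 to 9266 CPM in WT against 6045, 7460, 5514 and 7169 in KO libraries 1 to 4. KO libraries 1 and 3 were again lowest, as they were in 17 of the 22 genes singly. Mal, which sits in the myelin membrane, averaged 305 ± 21.7 CPM in WT against 219 ± 27.0 in KO (SD, n = 4 each; log2 fold change −0.47 ± 0.094). Mobp, a basic protein of myelin, had 1049 ± 27.5 CPM in WT against 781 ± 107 in KO, the connexin Gjc3 67.0 ± 6.94 and 47.4 ± 7.67, and Ugt8a, an enzyme of galactolipid synthesis, 90.5 ± 6.31 and 68.9 ± 8.67. The edgeR adjusted p of each of these 4 was 0.337, and the myelin genes of this list had been seen to be lower in an earlier look at these data.

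**Figure D2:**
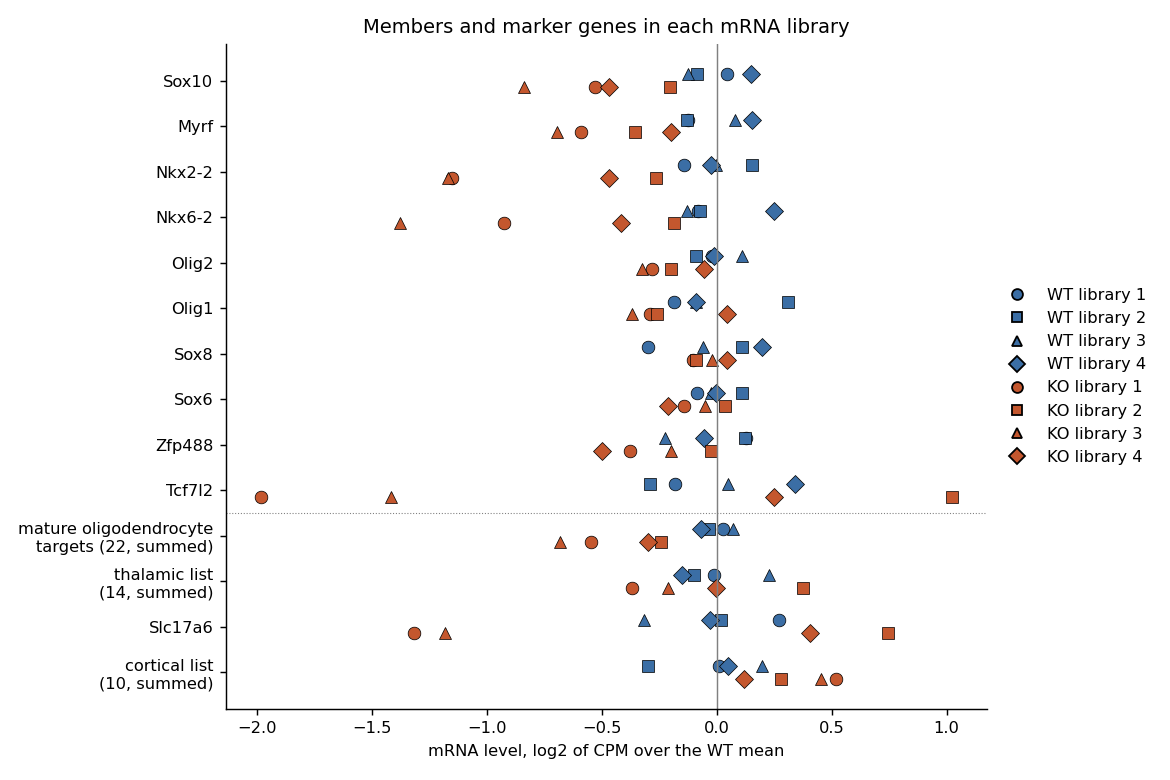
mRNA level of the 10 members and of marker genes or lists in each library, as log2 of CPM over the WT mean (0), with WT libraries in blue and KO in red and marker shape for the library number. KO libraries 1 and 3 (circle and triangle) are lowest for Sox10, Myrf, Nkx2-2, Nkx6-2, Tcf7l2, the mature oligodendrocyte targets and Slc17a6, and highest for the summed cortical list (2331 and 2226 CPM against 1320 to 1861 in WT).

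Genes of precursors and newly formed oligodendrocytes had a smaller median difference; the 2 lists were not tested against each other. Of 15 tested, 13 were below 0 with a median of −0.21, and 0 passed edgeR or DESeq2. At an unadjusted edgeR p under 0.05, 4 were lower, beside 5.22% of all genes. The sialidase Neu4 had 9.32 ± 0.747 CPM in WT against 6.75 ± 0.957 in KO (log2 fold change −0.47 ± 0.14), C1ql1, a secreted protein of precursors, had 12.1 ± 1.75 and 8.50 ± 2.34, and the deacetylase Sirt2 138 ± 9.47 and 120 ± 6.64 (SD, n = 4 each). Lims2 had 10.4 ± 0.875 and 8.26 ± 0.893 CPM, and the summed level of the list overlapped between groups (984 to 1098 CPM in WT, 876 to 997 in KO).

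Genes of a list of lineage inhibitors changed in both directions as single genes. The list also holds components of signalling pathways, such as Apc, Axin2 and Smad7, which need not inhibit the lineage themselves. Summed mRNA of the list was 1457 to 1530 CPM in KO libraries and 1362 to 1431 in WT libraries, without overlap. The mean of this sum was 1393 CPM in WT and 1493 in KO, and Lingo1 alone rose by nearly as much. The sum therefore does not describe the list as a whole. Of 19 listed genes tested, 9 were below 0 (median 0.02), 0 passed edgeR, and DESeq2 called Lingo1 higher, beside 0.666% of all genes called. DESeq2 gave no adjusted p to Tmem98, Hes1, Hes5, Id1 and Bmp4 under its filter on low counts. The unadjusted DESeq2 p of Tmem98 was 0.000396. At an unadjusted edgeR p under 0.05, 3 were lower and 3 higher, beside 5.22% and 5.32% of all genes. Lingo1, a neuronal and glial membrane protein that restrains differentiation, had 326 ± 33.9 CPM in WT against 416 ± 26.1 in KO (edgeR log2 fold change 0.35 ± 0.085, adjusted p = 0.337, DESeq2 adjusted p = 0.0245). Tmem98, which binds Myrf and blocks its cleavage, had 14.5 ± 1.05 and 10.3 ± 1.42 CPM (log2 fold change −0.49 ± 0.12). The receptor Gpr37 was at −0.38 ± 0.10, and Sox5, the SoxD partner of Sox6, at 0.29 ± 0.10.

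Of the 30 tested partners and chromatin factors, 18 were below 0 (median −0.06), and 0 passed edgeR or DESeq2. At an unadjusted edgeR p under 0.05, 4 were lower and 2 higher, beside 5.22% and 5.32% of all genes. Sox9, the SoxE factor of astrocytes and early precursors, had 32.0 ± 2.75 CPM in WT against 24.7 ± 3.53 in KO, and St18, a zinc finger relative of Myt1, 13.8 ± 4.46 and 8.67 ± 1.75 (SD, n = 4 each). The zinc finger gene Zfp365 was at 597 ± 49.0 and 714 ± 60.3 CPM, and Klf9, a thyroid hormone target, at 187 ± 36.5 and 236 ± 8.58.

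Footprints on 5 of the 6 members tested had wider errors than their mRNA, Tcf7l2 being the exception (SE 0.35 against 0.51), and the groups overlapped. Of the 6 members with enough footprints to test, 0 passed edgeR (0% of 8476 genes did), 0 passed DESeq2 (0.0472%), and 0 had an unadjusted edgeR p under 0.05 (5.52% of all genes, 2.64% lower and 2.88% higher). The groups overlapped in all 6, where 2.04% of all genes had every KO library lower and 1.57% every KO library higher. Footprint log2 fold changes were below 0 in 4 of 6, beside 50.4% of all genes, with a median of −0.18 for the members and −0.00 for all genes. That median ranged from −0.31 without KO library 4 to −0.05 without WT library 3. Sox10 had 21.5, 35.0, 25.6 and 27.9 footprint CPM in WT against 15.9, 28.5, 13.5 and 32.4 in KO. KO libraries 1 and 3, with 13 and 7 counts, were lowest as in mRNA, but KO libraries 2 and 4 lay among the WT values, and the log2 fold change was −0.22 ± 0.28 (95% interval −0.84 to 0.39, edgeR adjusted p = 0.951). With 1 library left out it lay between −0.40 (KO library 4 removed) and −0.08 (KO library 3 removed).

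Myrf footprints were 19.8, 17.1, 21.6 and 20.7 CPM in WT against 26.9, 21.6, 15.4 and 15.7 in KO, a fold change of 0.03 ± 0.26 on the log2 scale (95% interval −0.54 to 0.60, edgeR adjusted p = 0.994). KO library 1, low in Myrf mRNA, was the highest of all 8 in Myrf footprints. Sox8 had 49.8, 51.8, 57.8 and 43.0 footprint CPM in WT against 45.2, 43.3, 28.8 and 55.9 in KO (edgeR log2 fold change −0.20 ± 0.20, adjusted p = 0.931). All but KO library 3, with 15 counts, lay inside the WT range, and the Sox8 footprint change was −0.07 with that library removed and −0.33 with KO library 4 removed.

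Olig1 had 27.2, 51.2, 55.3 and 28.3 footprint CPM in WT against 34.2, 30.1, 36.5 and 45.1 in KO, all KO values inside the WT range (edgeR log2 fold change −0.17 ± 0.27, adjusted p = 0.964). Olig2 had 6.80, 19.8, 17.2 and 10.9 footprint CPM in WT against 15.9, 3.69, 15.4 and 4.91 in KO. KO libraries 2 and 4, with 7 and 5 counts, were the lowest, while in Olig2 mRNA they were the highest KO libraries, and the log2 fold change was −0.65 ± 0.52 (95% interval −1.77 to 0.46, edgeR adjusted p = 0.910). Leaving out 1 library moved it to between −1.08 (without KO library 1) and −0.28 (without KO library 2). Tcf7l2 had 9.06, 15.2, 23.1 and 19.2 footprint CPM in WT against 25.7, 12.1, 17.3 and 26.5 in KO (edgeR log2 fold change 0.25 ± 0.35, adjusted p = 0.961, with values of 0.066 without WT library 1 and 0.49 without KO library 2). KO libraries 1 and 3, at the bottom in Tcf7l2 mRNA, were at or above the WT median in footprints, and KO library 2, at the top in mRNA, was second lowest. Slc17a6 footprints were 44.0 and 110 CPM in KO libraries 1 and 3 against 53.0 to 69.5 in WT, so the footprint libraries did not repeat the mRNA pattern of that marker throughout.

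**Figure D3:**
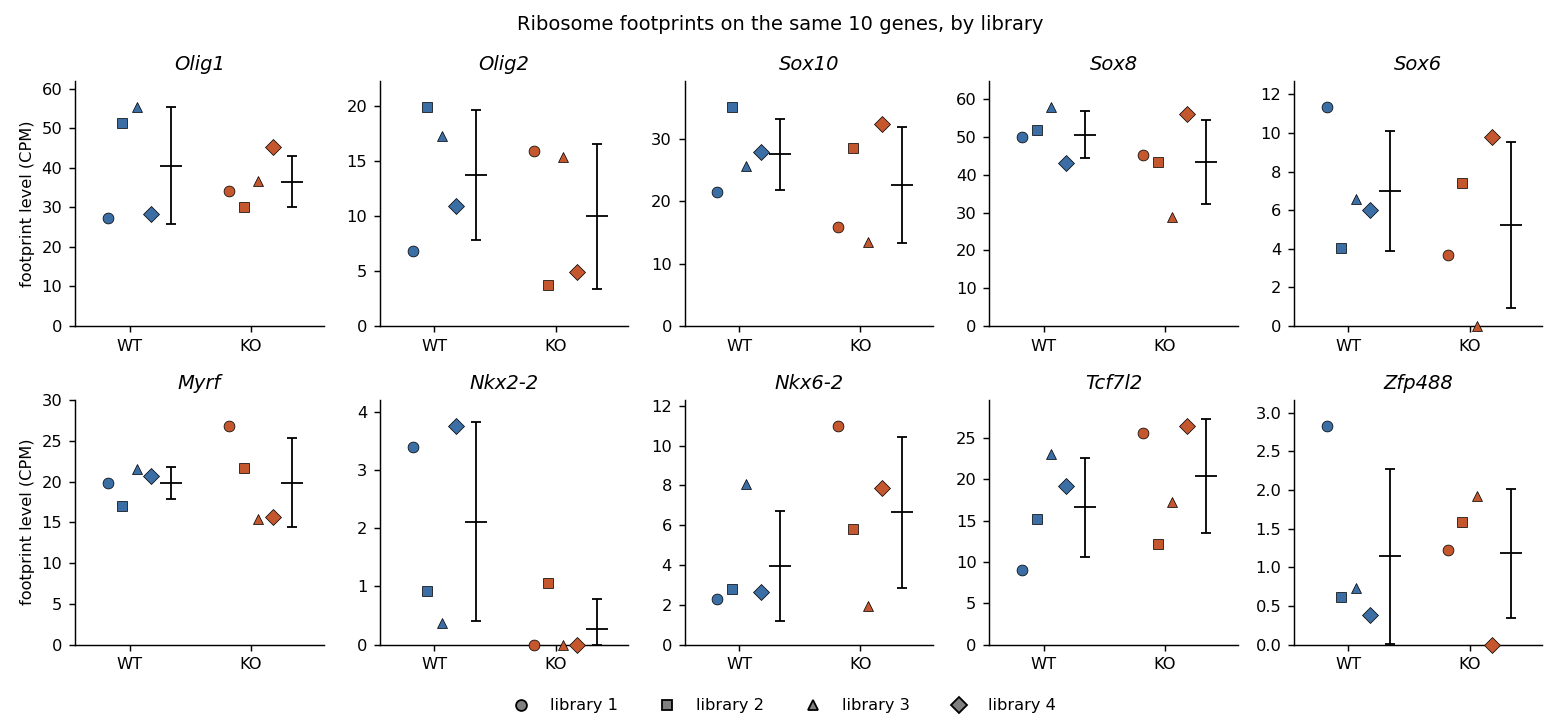
Ribosome footprints on each member in counts per 1000000 of library size (CPM, linear axis from 0) in 4 WT (blue) and 4 KO (red) libraries, with marker shape for the library number and mean ± SD beside the points (lower bars end at 0). The groups overlap for all 10 members, and Nkx2-2 is at 0 in 3 KO libraries.

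The remaining members had few footprints. Nkx2-2 had 6, 3, 1 and 10 footprint counts in WT against 0, 2, 0 and 0 in KO. A count of 0 allows up to 3.66, 5.77 and 2.94 CPM in KO libraries 1, 3 and 4, above the WT mean of 2.12 ± 1.72 CPM (SD, n = 4), so an absence cannot be read from these libraries. Scaled by depth, the ratio of 2 KO to 20 WT counts was 0.244, with an exact 95% interval for counting error alone of 0.0276 to 1.004, and the exact two-sided permutation p was 0.0857 (0.357 adjusted over the 5 comparisons, n = 4 each). Sox6 had 20, 13, 18 and 16 footprint counts in WT against 3, 14, 0 and 10 in KO (exact permutation p on CPM = 0.514, n = 4 each), and Zfp488 had 5, 2, 2 and 1 and 1, 3, 1 and 0 (exact permutation p = 0.971, n = 4 each). Nkx6-2 had 4, 9, 22 and 7 counts in WT against 9, 11, 1 and 8 in KO, which is 2.27, 2.79, 8.05 and 2.64 CPM and 11.0, 5.81, 1.92 and 7.85 CPM (exact permutation p = 0.371, n = 4 each). The depth-scaled ratio of KO to WT counts was 1.68 for Nkx6-2 (1.01 to 2.77), 0.983 for Sox6 (0.605 to 1.56) and 1.22 for Zfp488 (0.327 to 3.92), with the same kind of interval, which leaves out the spread between libraries. Of the 4 intervals, that of Nkx6-2 alone does not include 1.

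Other lineage genes gave 0 footprint calls by edgeR and DESeq2. Of 16 mature oligodendrocyte genes tested, 13 were below 0 (median −0.29). At an unadjusted edgeR p under 0.05, 3 were lower, beside 2.64% of all genes. Summed footprints of all 22 listed genes did not overlap (3332 to 3873 CPM in WT, 2435 to 2962 in KO). Summed footprints of the 10 cortical projection neuron genes were also lower in every KO library (427 to 582 CPM against 625 to 749 in WT), while their mRNA overlapped with a higher KO mean (2074 against 1625 CPM), and the part of cell make-up in the footprint values was not tested. Mal had 102 ± 25.1 footprint CPM in WT against 67.4 ± 5.77 in KO, and Cldn11, which seals myelin layers, 298 ± 76.8 and 207 ± 21.9 (SD, n = 4 each). Of 13 genes of the inhibitor list tested, 5 were below 0 (median 0.07, Id3 at −0.58 ± 0.28 and Apc at 0.30 ± 0.16). Of 23 partners, 16 were below 0 (median −0.08, Zfp365 at −0.46 ± 0.15 and Tcf12, a dimer partner of Olig factors, at 0.87 ± 0.32). At an unadjusted edgeR p under 0.05, 1 partner was lower and 2 higher, beside 2.64% and 2.88% of all genes. Of 11 precursor genes, 6 were below 0 (median −0.16, Bcas1 at −0.50 ± 0.32 and Cspg4 at −0.48 ± 0.34).

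**Figure D4:**
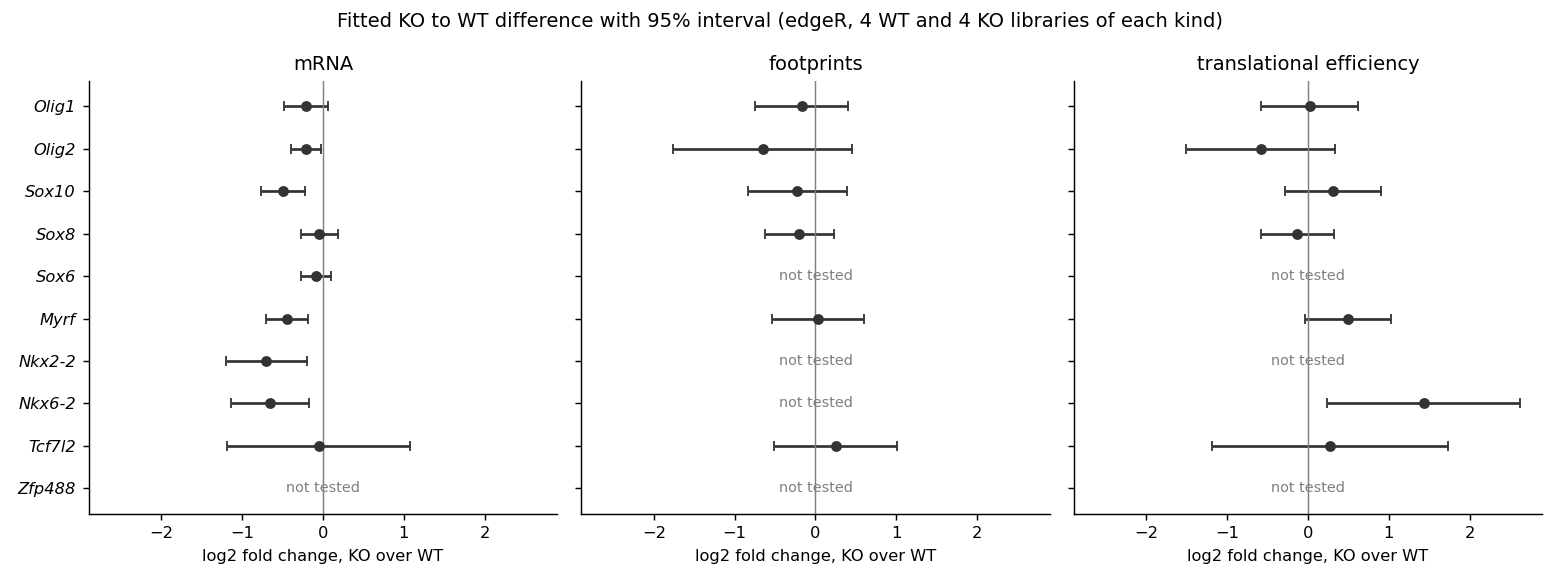
Fitted log2 fold change of KO over WT for each member in mRNA, footprints and translational efficiency, with 95% intervals from edgeR (4 WT and 4 KO libraries of each kind). mRNA intervals of Sox10, Myrf, Olig2, Nkx2-2 and Nkx6-2 lie below 0, footprint intervals all include 0, and the efficiency interval of Nkx6-2 lies above 0; none passed edgeR after adjustment.

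Translational efficiency, the footprint level relative to mRNA, was tested in 7 members, as the interaction between genotype and kind of library. Of these, 0 passed edgeR (0% of 9673 genes did) and 0 passed DESeq2 (1.55%, 0.651% lower). Only Nkx6-2 had an unadjusted edgeR p under 0.05, with a log2 change of 1.43 ± 0.58 (95% interval 0.23 to 2.63, unadjusted p = 0.0217, edgeR adjusted p = 0.373), where 10.9% of all genes passed that mark, 5.67% with a lower and 5.21% with a higher value. It rests on 42 WT and 29 KO footprint counts. Myrf was at 0.50 ± 0.26 (edgeR adjusted p = 0.496), Sox10 at 0.31 ± 0.29, Tcf7l2 at 0.27 ± 0.71, Olig1 at 0.02 ± 0.29, Sox8 at −0.13 ± 0.22 and Olig2 at −0.59 ± 0.45. Of the 7, 2 were below 0, beside 50.2% of all genes. The members' median was 0.27 beside −0.00 for all genes, and it was 0.011 without KO library 1. A median above 0 was not particular to the members. Mature oligodendrocyte genes had a median of 0.22, precursor and newly formed cell genes 0.21 and the inhibitor list 0.24. Partners and chromatin factors were at −0.10. Of 24 partners and chromatin factors, edgeR called 0 for efficiency, with 1 lower and 2 higher at an unadjusted p under 0.05, and DESeq2 called Zfp365 lower and Tcf12 higher.

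Within WT, members differed in their footprints relative to mRNA. The log2 ratio of footprint to mRNA RPKM (each plus 0.1) was −0.15 ± 0.34 for Sox8 and −0.23 ± 0.45 for Tcf7l2 (SD, n = 4), at percentiles 89.6 and 87.5 of 9673 genes, whose median was −1.14. Sox10 (−0.99 ± 0.35) and Olig2 (−1.12 ± 0.68) lay near the median, and Myrf (−1.44 ± 0.11) and Olig1 (−1.65 ± 0.45) below it. Nkx6-2 had the lowest ratio of the 7 tested members in WT, −2.33 ± 0.89, at percentile 10.9. In KO its ratio was −0.94 ± 0.87, at percentile 62.5, and the values by library were −2.81, −2.54, −1.02 and −2.94 in WT against 0.20, −1.44, −1.78 and −0.77 in KO. WT library 3 lay above KO libraries 2 and 3, so the groups overlapped. For Tcf7l2 the ratio spread from −1.61 in KO library 2 to 2.22 in KO library 1. RPKM uses the whole gene length, so long untranslated parts lower this ratio, and coding length was not used here.

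**Figure D5:**
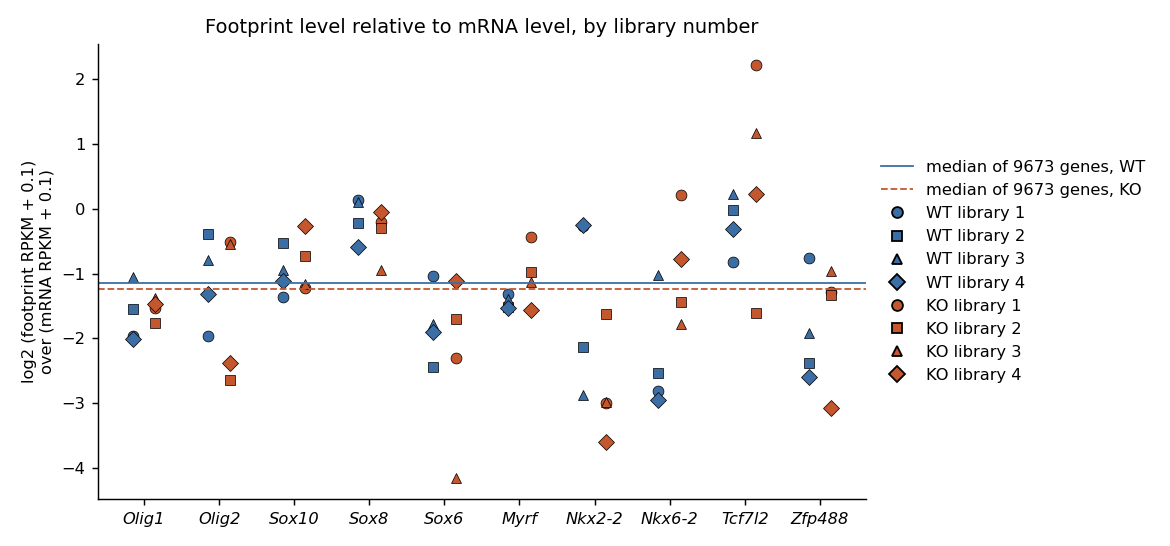
Log2 of (footprint RPKM + 0.1) over (mRNA RPKM + 0.1) for each member, pairing footprint and mRNA libraries of 1 number, with WT in blue and KO in red; lines mark the median of 9673 genes in WT (−1.14) and KO (−1.25). Sox8 and most Tcf7l2 points lie above the lines, Nkx6-2 WT points lie mostly below them, and Tcf7l2 in KO spans −1.61 to 2.22.

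Per length, Olig1 was the most abundant member in WT mRNA, at 53.7 ± 8.81 RPKM (SD, n = 4). Sox8 (17.2 ± 2.58) and Sox10 (16.9 ± 1.54) came next with overlapping ranges, then Olig2 (10.5 ± 0.602) and Nkx6-2 (9.06 ± 1.18), whose ranges also overlapped. Myrf was at 6.16 ± 0.634 RPKM, apart from its neighbours, while Tcf7l2 (2.07 ± 0.421), Sox6 (1.72 ± 0.101) and Nkx2-2 (1.53 ± 0.131) overlapped in turn and Zfp488 was lowest at 1.04 ± 0.118. In KO mRNA the order of the 10 members was the same, but many overlaps between neighbours changed. Sox10, at 12.2 ± 2.17 RPKM, no longer overlapped Sox8, at 16.9 ± 0.792. Olig2 and Nkx6-2, and Sox6 and Nkx2-2, no longer overlapped either. Sox10 and Olig2, Nkx6-2 and Myrf, Myrf and Tcf7l2, and Nkx2-2 and Zfp488 overlapped in KO but not in WT. In WT footprints Olig1 (17.8 ± 6.53 RPKM) and Sox8 (15.5 ± 1.86) overlapped at the top, followed by Sox10 (8.60 ± 1.79) and Olig2 (5.16 ± 2.24), which overlapped each other, then Myrf (2.20 ± 0.214), Nkx6-2 (1.97 ± 1.37) and Tcf7l2 (1.81 ± 0.649). Nkx2-2 (0.702 ± 0.569), Sox6 (0.449 ± 0.199) and Zfp488 (0.253 ± 0.252) were at the bottom with overlapping ranges.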

How the data were processed

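The deposited gene table held raw counts for footprints and for mRNA, and 2 further deposited tables held RPKM that the authors made from them. TopHat2 and mm10 are named, without a role, in the submitters' processing notes; the counting program and any filter are not given in the sources used here. The members were the 10 genes of the given names. Members and lists were chosen with earlier results of these data known. All members are named in every comparison; of each other lineage list, the 4 genes with the lowest unadjusted p in mRNA and the 2 in footprints are named; and, outside the lists, the 5 most alike genes.

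Counts were fitted with edgeR 4.0.16 (R 4.3.3, TMM, quasi-likelihood, Benjamini-Hochberg, threshold 0.05), KO against WT, over all genes kept by filterByExpr (minimum count 10) for footprints, at a mean RPKM of at least 1 for mRNA, and of at least 1 in both for translational efficiency, the interaction in 1 model. The scripts were tested on simulated data. CPM are counts per 1000000 of the TMM library size. Low members were compared by exact permutation. Log2 values were computed here from the deposited values. Alternatives included DESeq2 1.42.0 and limma 3.58.1 on log2(RPKM + 0.1). Footprint depth was 0.586 to 3.49 M counts (M, mega) and mRNA depth 15.6 to 17.8 M. Intervals on counts and limits from 3 counts cover counting error only. Replicate numbers were not taken as pairs. Motifs were searched in RefSeq promoter windows.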

Additional observations from a re-analysis of the deposited data

Results flagged for a closer look

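In 5 of 40 groups of 4 libraries, 1 library lay far from the other 3, where about 1 in 20 groups would by chance. Olig1 mRNA was 147 CPM in WT library 2 and 104 to 111 in the other WT libraries. Nkx6-2 mRNA was 20.9 CPM in WT library 4 and 16.1 to 16.8 in the others, and Nkx6-2 footprints were 8.05 CPM in WT library 3 (22 counts) and 2.27 to 2.79 in the others. Nkx2-2 footprints were 1.06 CPM in KO library 2 (2 counts) and 0 in the other KO libraries. Zfp488 footprints were 2.83 CPM in WT library 1 (5 counts) and 0.377 to 0.732 in the others.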

How the results depend on the processing

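The mRNA direction of Sox10, Myrf, Nkx2-2, Nkx6-2, Olig1, Olig2 and Sox6 held in all 18 alternatives run, with log2 fold changes of −0.60 to −0.39 for Sox10, −0.56 to −0.37 for Myrf, −0.88 to −0.39 for Nkx2-2 and −0.85 to −0.47 for Nkx6-2. The efficiency of Nkx6-2 stayed above 0 in 18 alternatives (1.08 to 2.10), where the other tested members had 19. A filter on a mean count of 10 leaves Nkx6-2 out, as did the main footprint filter, so its efficiency was not checked at higher counts. Adjusted p under 0.05 was reached only by Sox10 and Myrf, with DESeq2 (2 members). In mRNA, DESeq2 called 87 genes, no filter gave 24, and leaving out 1 library gave 0 to 2 (2 without KO library 4); the members' median ranged from −0.48 (without KO library 2) to −0.17. Footprint calls were 4 with DESeq2, 86 with no filter and 3 with protein-coding genes only. Efficiency calls were 150 with DESeq2, 2 with no filter and 0 to 4 when 1 library was left out (4 without KO library 2, 1 each without WT library 3 or 4). The cause of these shifts was not tested.

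Values near 0 changed sign. Footprints of Myrf were at −0.0038 with upper-quartile sizes, −0.010 with no filter, −0.016 and −0.0049 with limma at pseudocounts of 0.1 and 1, −0.070 without WT libraries 1 and 2, and −0.12 to 0.15 with 1 library left out. Footprints of Olig1 ranged from −0.31 to 0.021 with 1 library left out, and Tcf7l2 footprints were at −0.078 without WT libraries 1 and 2. With 1 library left out, mRNA of Sox8 ranged from −0.13 to 0.035, mRNA of Tcf7l2 from −0.72 to 0.26, and efficiency of Olig1 from −0.10 to 0.23 and of Tcf7l2 from −0.19 to 1.23. Efficiency of Olig1 was −0.034 with no filter and −0.10 without WT libraries 1 and 2.

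Same-number WT and KO libraries deviated together at correlations of −0.26 to 0.07 in footprints and −0.24 to 0.03 in mRNA. A low correlation cannot show that libraries were unpaired, and the labels do not say whether a shared number marks a pair. With the replicate number as a block, calls stayed at 0 and the members' median was −0.16 in footprints, −0.45 in mRNA and 0.14 in efficiency. Library scaling within each kind, added after the data were seen, gave an efficiency median of 0.27. Footprints per coding base were not run. Footprint depth limits Nkx2-2, Sox6, Nkx6-2 and Zfp488 most.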
